A study of Mus musculus with 9 samples.

Results

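Protocadherins are cadherin-type adhesion proteins of the neuronal surface, and their genes form 4 classes. The alpha, beta and gamma genes lie side by side in clusters on mouse chromosome 18. Each alpha and gamma transcript joins 1 variable first exon, which codes for the extracellular domains, to a short set of constant exons that codes for a shared cytoplasmic end. Beta genes have no constant exons. Neurons choose small sets of alpha, beta and gamma promoters largely at random, through loops held by CTCF and cohesin, and the resulting proteins bind only like proteins on other membranes, which lets a neuron tell its own branches from those of others. The C-type members at the end of the alpha and gamma clusters are chosen by most neurons. The non-clustered genes are scattered over the genome and include regulators of synapses and of actin at the membrane.

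Members were all genes of the deposited tables whose symbol begins with Pcdh followed by a digit, a, b or g. They were 68 of 47593 genes, with 186 of 115220 transcripts: 13 alpha, 22 beta, 21 gamma and 12 non-clustered genes. The values are FPKM, fragments per kilobase of transcript scaled to the mapped fragments of the library, which the authors deposited per transcript. A gene's level here is the sum of FPKM over its transcripts. Of the 68 genes, 65 reached a mean of 0.5 FPKM in each comparison and were tested. Pcdha8, Pcdhb1 and Pcdh12, a protocadherin of vascular endothelium, stayed below, with means over the 9 libraries of 0.255, 0.0558 and 0.0285 FPKM.

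RNA bound to ribosomes was pulled down by RiboTag immunoprecipitation, which captures a tagged ribosomal protein, from mPFC neurons (medial prefrontal cortex) of adult C57BL/6 mice. In 1 group of 3 libraries a fusion of GFP with the RNA-binding protein Fxr1 was overexpressed in the mPFC and the mice were kept awake (Fxr1 enforced wake). In another 3 libraries GFP alone was overexpressed and the mice were kept awake (control enforced wake), and in the last 3 GFP alone was overexpressed and the mice slept (control sleep). The promoter behind either construct and the driver of the ribosome tag are not given in the sources used here. The labels do not say that replicates came from separate animals, so p-values measure the spread between these libraries, which may be technical.

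The libraries held an estimated 2.99e7 to 3.73e7 fragments, and Fxr1 itself had 91.1, 67.7 and 71.8 FPKM in the Fxr1 enforced wake libraries, above the 31.0 to 34.9 FPKM of all 6 control libraries. Fxr1 library 1 stood apart, with a score of -64.1 on the first principal component against -13.3 to 31.2 in the other 8 libraries. Pan-neuronal markers (6 genes such as Snap25) summed to 3677 to 3835 FPKM in Fxr1 enforced wake, 3443 to 3687 in control enforced wake and 3788 to 3931 in control sleep. The median difference of the 6 genes ran the other way, at -0.425 for Fxr1 enforced wake against control enforced wake and 0.364 for control enforced wake against control sleep. Astrocyte markers (10 genes) summed to 312 to 369, 365 to 428 and 352 to 378 FPKM in the same groups, and no marker of the 8 cell type lists averaged under 0.1 FPKM. In bulk samples fewer cells of a type and less RNA per cell cannot be told apart. Levels also moved with the share of G and C bases (GC content) of transcripts. Deviations of a library from the mean of all libraries were correlated with GC content across genes (Spearman). The correlations were 0.649 to 0.738 in control enforced wake and -0.805 to -0.255 in Fxr1 enforced wake. Control sleep libraries 1, 2 and 3 had 0.254, -0.389 and 0.171, so that group held both signs. Because the classes differ in GC content (medians of 47.3% for alpha, 46.0% for beta, 53.1% for gamma and 45.5% for non-clustered genes), many but not all results are also given with a spline trend of GC content and transcript length removed, a step that would also take away true changes tied to GC content.

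Among the classes, the non-clustered genes gave the most RNA. They summed to 182, 191 and 174 FPKM in Fxr1 enforced wake, 160, 189 and 198 in control enforced wake, and 183, 177 and 180 in control sleep, and the 3 groups overlapped. Gamma genes followed with sums of 70.4, 85.2 and 97.1 FPKM in Fxr1 enforced wake, 102.6, 107.6 and 105.0 in control enforced wake, and 109.0, 96.3 and 113.0 in control sleep. All Fxr1 values except that of library 3 lay below every control value. Beta genes summed to 64.4, 56.0 and 54.5 FPKM in Fxr1 enforced wake, 47.4, 50.9 and 48.2 in control enforced wake, and 60.8, 56.1 and 56.3 in control sleep. Control enforced wake was the low group here, with no overlap with either other group. Alpha genes summed to 24.5, 27.0 and 26.4 FPKM in Fxr1 enforced wake, 27.8, 29.1 and 29.2 in control enforced wake, and 31.0, 29.3 and 30.0 in control sleep, so that the 3 groups stood in steps without overlap on the deposited scale. With equal FPKM totals the alpha sums averaged 27.2 in both enforced wake groups and overlapped, with 30.4 in control sleep, and with median-of-ratios scaling the enforced wake groups overlapped as well.

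The picture of the sums changed for beta and gamma once the GC trend was removed. The beta sums averaged 55.5 ± 1.52 FPKM in Fxr1 enforced wake, 52.2 ± 2.41 in control enforced wake and 56.8 ± 4.12 in control sleep (SD, n = 3 each), and all 3 groups overlapped. The gamma sums averaged 95.3 ± 4.85 FPKM in Fxr1 enforced wake, 91.8 ± 3.42 in control enforced wake and 106.4 ± 3.33 in control sleep. On that scale both enforced wake groups lay below control sleep, and the deficit of Fxr1 enforced wake against control enforced wake was gone. The alpha sums kept the order of the groups (25.8, 28.7 and 30.2 FPKM on average), although control enforced wake and control sleep then overlapped. These sums are descriptions without a test.

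**Figure D1:**
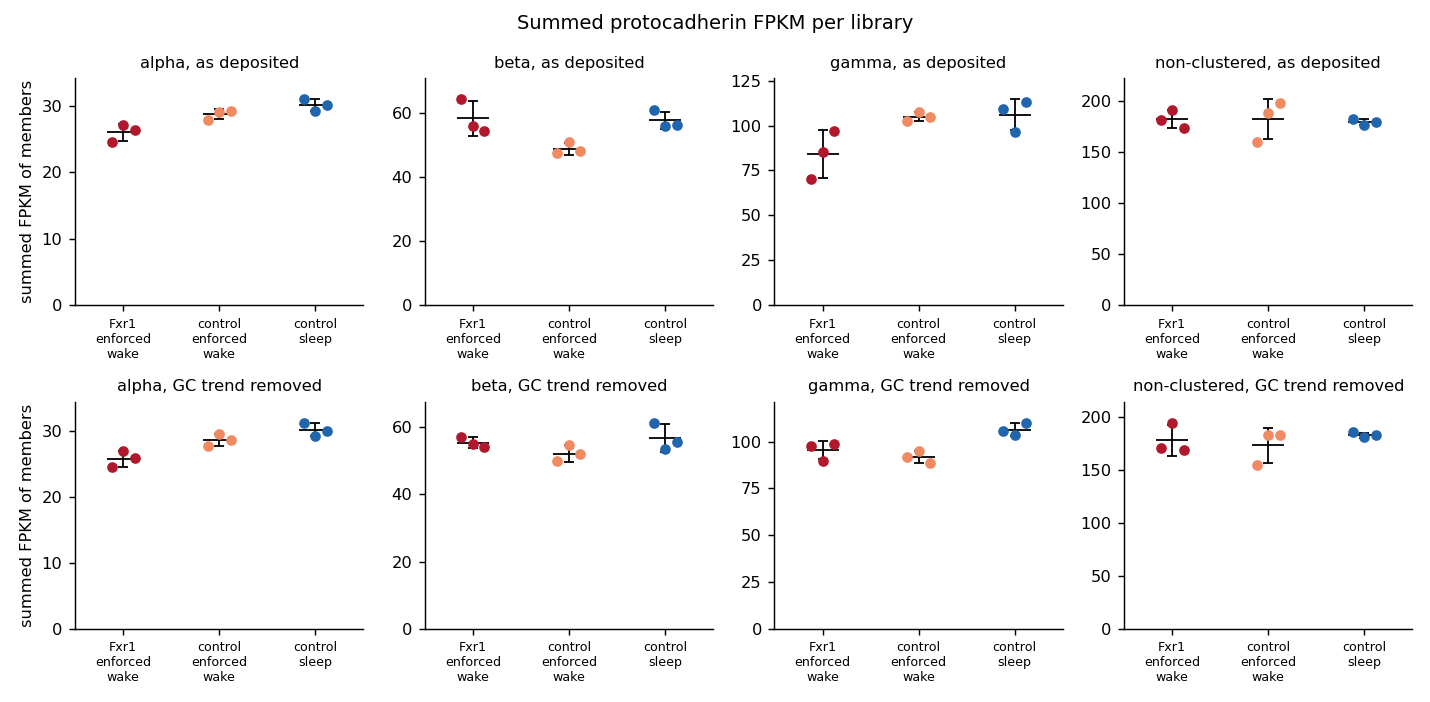
Summed FPKM of all members of each class, 1 point per library, with the mean and SD of 3 libraries in black; the upper row shows the deposited values and the lower row the values with the GC content and length trend removed. The upper beta panel has all control enforced wake points (47.4 to 50.9 FPKM) below the other groups, and the lower beta panel has overlapping groups.

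Levels within a class were uneven. In the alpha cluster the C-type gene Pcdhac2, which guides the spacing of serotonergic axons, averaged 9.96 FPKM over the 9 libraries and made up 35.3% of the class. The other C-type gene, Pcdhac1, averaged 0.990 FPKM. In the gamma cluster the C-type gene Pcdhgc5 averaged 18.1 FPKM (18.4% of the class), and Pcdhgc3 averaged 1.67 FPKM. Pcdhgc4, which is needed for the survival of many interneurons, is not a symbol of the tables. Its gene identifier, ENSMUSG00000023036, stands there under the symbol Pcdhga8, where it had 1.88, 1.57 and 2.63 FPKM in Fxr1 enforced wake, 1.92, 2.0 and 3.08 in control enforced wake, and 3.52, 2.64 and 1.74 in control sleep, with all groups overlapping. Between libraries, single beta genes varied least. The median ratio of a gene's highest library to its lowest was 1.56 in beta, against 1.79 in alpha, 1.78 in gamma and 1.896 in non-clustered genes. The ranges of class levels were 0.255 to 9.96 FPKM in alpha, 0.0558 to 5.41 in beta, 0.978 to 18.1 in gamma and 0.0285 to 49.2 in non-clustered genes. The 3 non-clustered genes with the highest means were Pcdh10 (49.2 FPKM), Pcdh7 (44.2) and Pcdh1 (36.9).

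Enforced wake was compared with sleep in the GFP control libraries, to ask which ribosome-associated RNAs differ with the waking state. Of the 65 protocadherins tested, 3 rose and 5 fell (limma on log2(FPKM + 1), Benjamini-Hochberg over all genes, threshold 0.05), which is 12.3%. Over all 14673 genes tested 28.3% passed, 15.7% higher and 12.7% lower, so a smaller share of protocadherins than of all genes passed. The median difference was -0.12 for protocadherins and 0.00 for all genes. Pcdh1, Pcdh8 and Pcdh17 rose, while Pcdh10, Pcdh11x, Pcdhb9, Pcdhb17 and Pcdhb22 fell. No alpha gene of 12 and no gamma gene of 21 passed. When all libraries were brought to the same FPKM total, 2 protocadherins rose and 14 fell, 10 of them beta, with 31.8% of all genes passing and a median of all genes of -0.07. Unadjusted, 16 of the 65 had p under 0.05, against 6248 of all 14673 genes.

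Pcdh1, an adhesion protein known from airway epithelium and brain, had 50.8, 53.9 and 62.7 FPKM in control enforced wake, against 35.0, 25.9 and 31.9 in control sleep. The groups did not overlap, and the difference in log2(FPKM + 1) was 0.84 (SE 0.13, limma adjusted p = 0.00732). It was 0.38 with the GC trend removed (SE 0.05, limma adjusted p = 0.00546), where 23.6% of all genes passed. The call held without any 1 of the 6 libraries and was lost with all 9 libraries in the fit (limma adjusted p = 0.279). Its transcript ENSMUST00000161701, the only protocadherin transcript of 90 to pass, had 31.4, 30.8 and 37.4 FPKM in control enforced wake and 19.7, 16.9 and 20.6 in control sleep, a difference of 0.77 (SE 0.11, limma adjusted p = 0.0344, where 3.62% of all transcripts passed). Pcdh1 lies on chromosome 18 at 38185914 to 38212053 (GRCm38), downstream of the gamma cluster, and has the highest GC content of all members (60.7%).

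Pcdh8 (arcadlin) is induced by neuronal activity and drives the uptake of N-cadherin from synapses through the kinase Taok2. It had 3.98, 4.73 and 5.65 FPKM in control enforced wake, against 2.98, 2.26 and 2.82 in control sleep, again without overlap. It rose by 0.65 (SE 0.13, limma adjusted p = 0.0153), and passed in 5 of 6 fits that left out 1 library. Its GC content is 59.3%, and with the GC trend removed the difference of 0.25 missed the threshold (limma adjusted p = 0.0680). The deposited estimates of its transcripts ENSMUST00000039568 and ENSMUST00000195355 alternated: in control sleep the first had 0, 2.15 and 2.56 FPKM and the second 2.92, 0 and 0, so only the gene sum could be read.

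Pcdh17, a presynaptic protocadherin of cortical and striatal circuits, had 16.1, 14.3 and 14.2 FPKM in control enforced wake, against 12.4, 12.4 and 12.8 in control sleep. It rose by 0.23 (SE 0.07, limma adjusted p = 0.0432), and by nearly as much with the GC trend removed (0.24, limma adjusted p = 0.0396). The groups did not overlap, but the call was lost in all 6 fits that left out 1 library (limma adjusted p of 0.0760 to 0.107).

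Pcdh10, which binds the WAVE actin complex through Nckap1, was the most abundant protocadherin and fell. It had 41.3, 44.5 and 41.2 FPKM in control enforced wake, against 54.5, 53.1 and 52.2 in control sleep, a difference of -0.32 (SE 0.06, limma adjusted p = 0.00984). The lowest control sleep library lay well above the highest control enforced wake library. The call held without any 1 of the 6 libraries and with the GC trend removed (-0.25, limma adjusted p = 0.0230). When only its most abundant transcript, ENSMUST00000170695, was taken the difference was -0.01, since that transcript had 26.5, 37.8 and 23.0 FPKM in control enforced wake and 28.4, 29.4 and 28.3 in control sleep.

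Pcdh11x, the X-linked protocadherin with the lowest GC content of the members (36.3%), had 2.21, 2.70 and 2.28 FPKM in control enforced wake, against 3.55, 3.51 and 3.10 in control sleep. It fell by 0.37 (SE 0.09, limma adjusted p = 0.0236), with no overlap. It passed in 2 of 6 fits that left out 1 library, but not with the GC trend removed (-0.24, limma adjusted p = 0.0876).

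The promoter windows of Pcdh8, Pcdh17 and Pcdh10 are shown because these genes passed between enforced wake and sleep; the windows run from 250 bases before to 50 bases after the RefSeq start (GRCm38.p6), and 9 of 12 non-clustered genes had one. Pcdh8 is at chr14:79771263-79771562 on the minus strand, Pcdh17 at chr14:84443313-84443612 and Pcdh10 at chr3:45378148-45378447 on the plus strand. Capitals mark the letters searched on both strands: the cAMP response element TGACGTCA and its core TGACG, the AP-1 site TGANTCA, the E-box CACGTG, the Egr site GCGTGGGCG and the CAAT box CCAAT. The full cAMP response element contains the core, and a match is a description of letters only.
Pcdh8: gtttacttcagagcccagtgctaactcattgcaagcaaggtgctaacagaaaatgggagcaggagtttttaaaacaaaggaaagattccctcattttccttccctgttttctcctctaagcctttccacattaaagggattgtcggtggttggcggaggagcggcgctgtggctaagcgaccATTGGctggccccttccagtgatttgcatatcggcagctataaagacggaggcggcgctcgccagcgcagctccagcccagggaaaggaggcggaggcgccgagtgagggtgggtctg
Pcdh17: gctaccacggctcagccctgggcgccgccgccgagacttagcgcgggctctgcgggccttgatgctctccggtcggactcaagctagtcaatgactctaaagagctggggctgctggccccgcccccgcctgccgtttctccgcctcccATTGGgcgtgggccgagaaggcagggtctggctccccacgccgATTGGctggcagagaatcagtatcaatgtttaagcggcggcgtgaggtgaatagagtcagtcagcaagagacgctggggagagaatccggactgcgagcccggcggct
Pcdh10: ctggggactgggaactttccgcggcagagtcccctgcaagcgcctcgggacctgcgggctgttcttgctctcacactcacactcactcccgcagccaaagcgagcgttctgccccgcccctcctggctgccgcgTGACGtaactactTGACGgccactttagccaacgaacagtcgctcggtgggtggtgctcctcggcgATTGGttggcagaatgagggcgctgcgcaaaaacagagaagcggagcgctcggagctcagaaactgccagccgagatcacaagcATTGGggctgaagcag
Pcdh10 held 2 cores and 2 CAAT boxes, Pcdh17 held 2 CAAT boxes and Pcdh8 held 1. Of all 32851 windows, 20.8% held the core, 37.4% a CAAT box, 1.79% a full cAMP response element, 7.81% an AP-1 site, 7.15% an E-box and 0.612% an Egr site. None of the last 4 was found in these 3 windows.

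Beta protocadherins, adhesion proteins whose promoters are chosen like those of the alpha and gamma genes, were mostly lower in control enforced wake. Of 21 tested, 19 had a negative difference, with a median of -0.19 against 0.00 for all genes. Of the 21, 3 fell and none rose, where 12.7% of all genes fell. With all 9 libraries in the fit 0 of the 21 passed, against 9.56% of all genes. With the replicate number as a block it was again 0, against 21.2%. Pcdhb22 had 2.31, 2.45 and 2.34 FPKM in control enforced wake, against 3.20, 3.05 and 3.20 in control sleep. It fell by 0.30 (SE 0.06, limma adjusted p = 0.0186). Pcdhb9 had 3.75, 3.92 and 3.97 FPKM in control enforced wake, against 4.96, 4.76 and 4.82 in control sleep, and fell by 0.26 (SE 0.06, limma adjusted p = 0.0245). Pcdhb17, the most abundant beta gene, had 4.74, 5.08 and 4.69 FPKM in control enforced wake, against 5.66, 5.67 and 5.95 in control sleep, and fell by 0.21 (SE 0.06, limma adjusted p = 0.0485). None of the 3 genes had overlapping groups. Pcdhb22 passed in 2 of 6 fits that left out 1 library, Pcdhb9 in 1 and Pcdhb17 in none.

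The beta difference was wide but small. In 14 of the 21 genes all control enforced wake values lay below all control sleep values, against 23.8% of all genes, and in none did they lie above, against 25.8%. Pcdhb16 did not pass (-0.19, limma adjusted p = 0.120), with 3.61, 3.92 and 3.29 FPKM in control enforced wake and 4.09, 4.12 and 4.53 in control sleep. With the GC trend removed 17 of 21 differences stayed negative with a median of -0.10, and the groups stood apart downward in 5 of 21 genes, against 25.7% of all genes. Pcdhb22 and Pcdhb9 passed on that scale (-0.24 and -0.22, limma adjusted p = 0.0382 and 0.0385) and Pcdhb17 did not (-0.10, limma adjusted p = 0.260). The pan-neuronal marker sum was lower in control enforced wake than in control sleep, but its 6 genes split, with Map2 and Tubb3 up and Syt1 and Snap25 down (limma adjusted p under 0.05). The sum of the excitatory neuron markers was higher (846 to 988 FPKM in control enforced wake, 730 to 834 in control sleep), with 3 of 10 genes up and 2 down. The part of either list in the result was not tested.

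**Figure D2:**
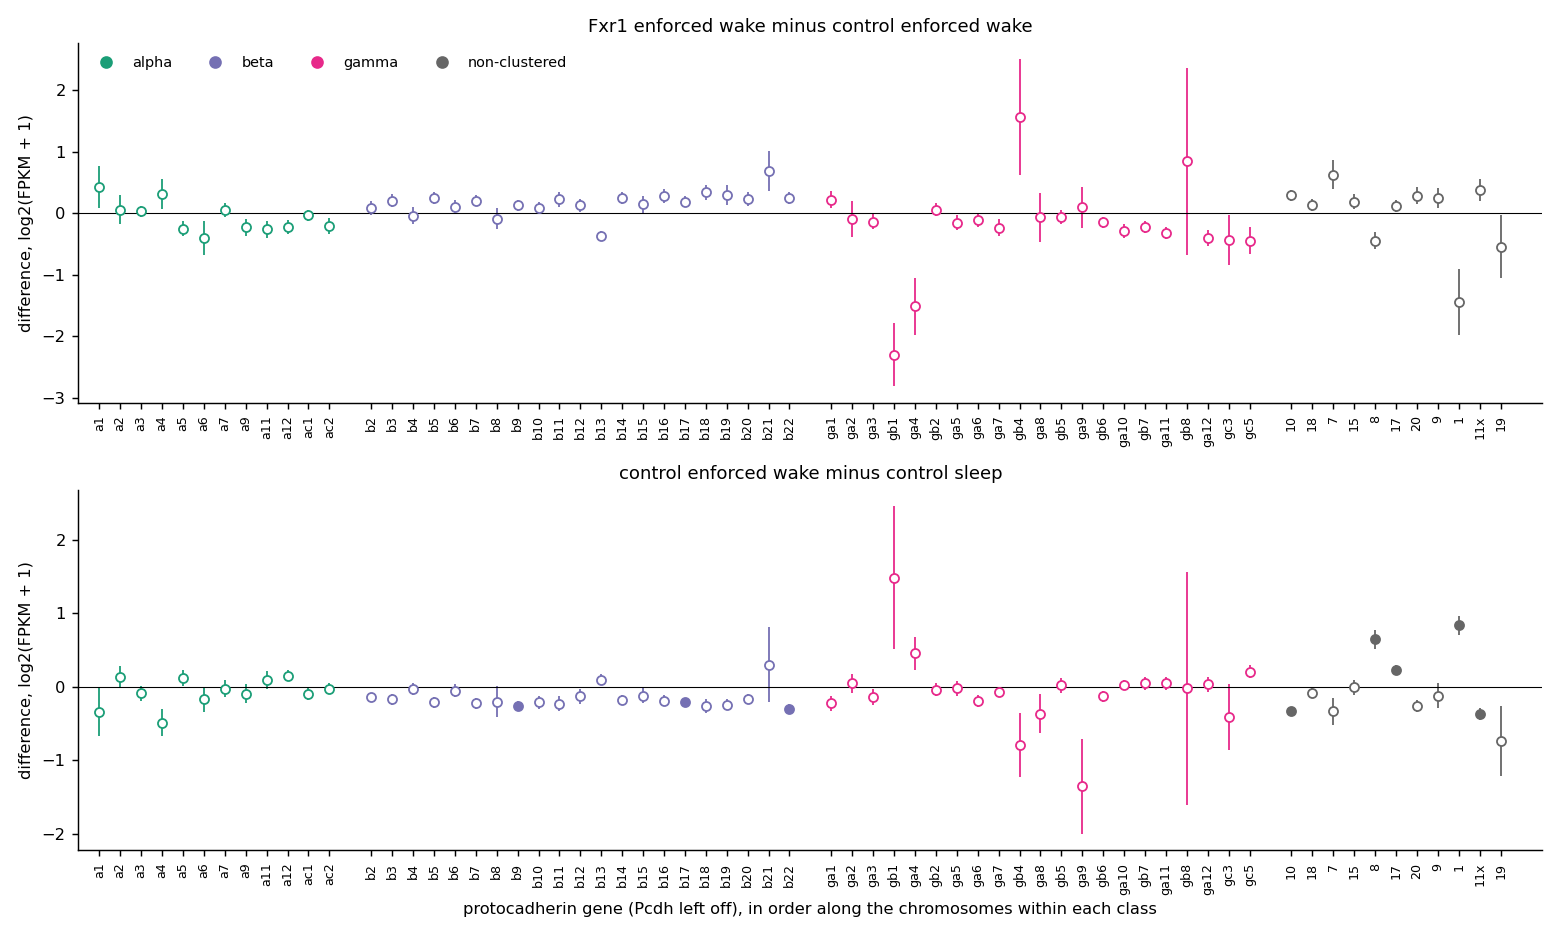
Difference of each tested protocadherin on the log2(FPKM + 1) scale with its SE, for Fxr1 enforced wake minus control enforced wake (top) and control enforced wake minus control sleep (bottom); filled points passed at a limma adjusted p under 0.05. The bottom panel has 8 filled points, 3 of them beta and 5 non-clustered, and the top panel has none, while most beta points lie above 0 in the top panel and below 0 in the bottom panel.

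Groups stood apart between enforced wake and sleep in 1 of 12 alpha genes (higher) and in 2 gamma genes upward and 3 downward of 21, against 25.8% of all genes upward and 23.8% downward. The alpha differences ran from -0.49 to 0.15, with 4 positive and 8 negative. Pcdhac2 had 9.93, 10.7 and 10.5 FPKM in control enforced wake, against 10.7, 9.68 and 11.4 in control sleep (-0.03, limma adjusted p = 0.811). Pcdhac1 (-0.10, limma adjusted p = 0.382), Pcdha11 (0.09, limma adjusted p = 0.623) and Pcdha6 (-0.17, limma adjusted p = 0.481) did not pass either. The gamma differences had a median of -0.02, with 9 positive and 12 negative. Pcdhgc5 had 19.7, 21.6 and 21.1 FPKM in control enforced wake, against 19.6, 15.96 and 18.3 in control sleep, with no overlap but no call (0.20, limma adjusted p = 0.119). With the GC trend removed 19 of 21 gamma differences were negative, with a median of -0.17, and the groups stood apart downward in 8 of 21 genes, against 25.7% of all genes. Only Pcdhgb6 passed on that scale (-0.32, limma adjusted p = 0.0331), with deposited values of 3.15, 3.07 and 2.76 FPKM in control enforced wake and 3.42, 3.30 and 3.40 in control sleep.

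Fxr1 enforced wake was compared with control enforced wake to ask what Fxr1 overexpression changes during waking. No protocadherin of 65 passed, and 0.412% of all 14563 genes passed. At an unadjusted p under 0.05 there were 14 of the 65, against 5582 of all 14563 genes. The adjusted counts depended on which libraries were fitted. Without Fxr1 library 1, 5651 genes and 10 of the 65 protocadherins had an unadjusted p under 0.05. In that fit 22.8% of all genes passed (3316), and 4 of the 65 protocadherins. Pcdh10 was higher (0.23, limma adjusted p = 0.0452), and Pcdh1 (-0.77, limma adjusted p = 0.00892), Pcdhb13 (-0.36, limma adjusted p = 0.0280) and Pcdhga11 (-0.25, limma adjusted p = 0.0499) were lower. Without Fxr1 library 3 only Pcdhga4 passed of the 65, against 0.351% of all genes. Without control enforced wake library 1 only Pcdhgb1 did, against 0.0275% of all genes. When the 3 control sleep libraries joined the fit, 23% of all genes (3366) and 4 of the 65 protocadherins passed. Pcdh10 (0.29, limma adjusted p = 0.0389) was higher, and Pcdhb13 (-0.37, limma adjusted p = 0.0345), Pcdhga4 (-1.51, limma adjusted p = 0.0448) and Pcdh8 (-0.45, limma adjusted p = 0.0483) were lower. After removal of the GC trend 0 of 65 passed, against 0.309% of all genes.

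Pcdh1 had 7.19, 32.7 and 31.8 FPKM in Fxr1 enforced wake, against 50.8, 53.9 and 62.7 in control enforced wake. All Fxr1 values were lower, library 1 by far the most, and the difference was -1.44 (SE 0.54, limma adjusted p = 0.109), or -0.63 with the GC trend removed. Pcdh10 had 56.7, 50.7 and 48.9 FPKM in Fxr1 enforced wake, against 41.3, 44.5 and 41.2 in control enforced wake, without overlap (0.29, SE 0.09, limma adjusted p = 0.0929). The Fxr1 values were near the 52.2 to 54.5 FPKM of control sleep. The Pcdh10 difference was 0.09 with the GC trend removed. Pcdh8 had 3.56, 3.42 and 2.73 FPKM in Fxr1 enforced wake, against 3.98, 4.73 and 5.65 in control enforced wake, also without overlap (-0.45, limma adjusted p = 0.0949), and its sign turned with the GC trend removed (0.30, limma adjusted p = 0.520). On that log2 scale the groups overlapped, with 3.045, 2.32 and 1.958 in Fxr1 enforced wake and 1.996, 2.169 and 2.266 in control enforced wake. The highest value was that of Fxr1 library 1.

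Pcdhb13 went against most of its class. It had 1.17, 1.15 and 1.26 FPKM in Fxr1 enforced wake, against 1.86, 1.77 and 1.88 in control enforced wake and 1.62, 1.53 and 1.84 in control sleep. Both control groups lay above all Fxr1 values. The difference from control enforced wake was -0.37 (SE 0.08, limma adjusted p = 0.0878) and did not shrink with the GC trend removed (-0.45, limma adjusted p = 0.0939). It was singled out after its values were seen.

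Most other beta genes leaned the opposite way. Of 21, 18 had a positive difference between Fxr1 enforced wake and control enforced wake, with a median of 0.20 against -0.06 for all genes. In 10 genes all Fxr1 values lay above all control enforced wake values and in 1 below, where 20.3% of all genes stood above and 32.3% below. Pcdhb17 had 5.81, 5.70 and 5.41 FPKM in Fxr1 enforced wake, against 4.74, 5.08 and 4.69 in control enforced wake (0.19, limma adjusted p = 0.161). Pcdhb22 had 3.44, 2.81 and 2.76 FPKM in Fxr1 enforced wake, against 2.31, 2.45 and 2.34 in control enforced wake (0.24, limma adjusted p = 0.131). Both genes had separate groups, and neither passed. After removal of the GC trend the beta median was 0.08, 16 of 21 differences were positive and 5 genes stood above, against 20.0% of all genes.

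Gamma genes leaned down. Of 21, 16 had a negative difference, with a median of -0.14 against -0.06 for all genes, and in 9 of 21 genes all Fxr1 values lay below all control enforced wake values, against 32.3% of all genes. Pcdhgc5 had 10.1, 17.1 and 19.2 FPKM in Fxr1 enforced wake, against 19.7, 21.6 and 21.1 in control enforced wake (-0.45, SE 0.22, limma adjusted p = 0.179), with the lowest value in Fxr1 library 1. Pcdhgc3 overlapped between the groups (-0.44, limma adjusted p = 0.434). With the GC trend removed the gamma median turned to 0.09 and 16 of 21 differences were positive; 2 genes stood above and 2 below, against 20.0% and 13.5% of all genes. With equal FPKM totals the gamma median was -0.03. In the alpha cluster 7 of 12 differences were negative, with a median of -0.12, or -0.02 with equal totals. Pcdhac2 had 7.23, 10.3 and 9.15 FPKM in Fxr1 enforced wake, against 9.93, 10.7 and 10.5 in control enforced wake, and the groups overlapped (-0.21, limma adjusted p = 0.266). Pcdhac1 differed by -0.03 (limma adjusted p = 0.804), Pcdha11 by -0.26 (limma adjusted p = 0.194) and Pcdha6 by -0.41 (limma adjusted p = 0.293).

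Protocadherin differences varied with GC content. Over all genes the median difference between Fxr1 enforced wake and control enforced wake was 0.29 in the fifth of genes with the lowest GC content and -0.62 in the fifth with the highest. Between control enforced wake and control sleep the same medians were -0.17 and 0.28. Among the 65 protocadherins the Spearman correlation of the difference with GC content was -0.619 for Fxr1 enforced wake against control enforced wake and 0.299 for control enforced wake against control sleep. After the trend of all genes was removed the correlations were 0.177 and -0.230, so that the sign turned in both comparisons. Between control enforced wake and control sleep the gamma genes had a median of -0.02, where the fifth of all genes with a median GC content of 53.3% had 0.105. The points share libraries and constant exons, so these correlations are descriptions. The excitatory neuron markers (10 genes) summed to 575 to 776 FPKM in Fxr1 enforced wake, 846 to 988 in control enforced wake and 730 to 834 in control sleep, and their part in the class differences was not tested.

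**Figure D3:**
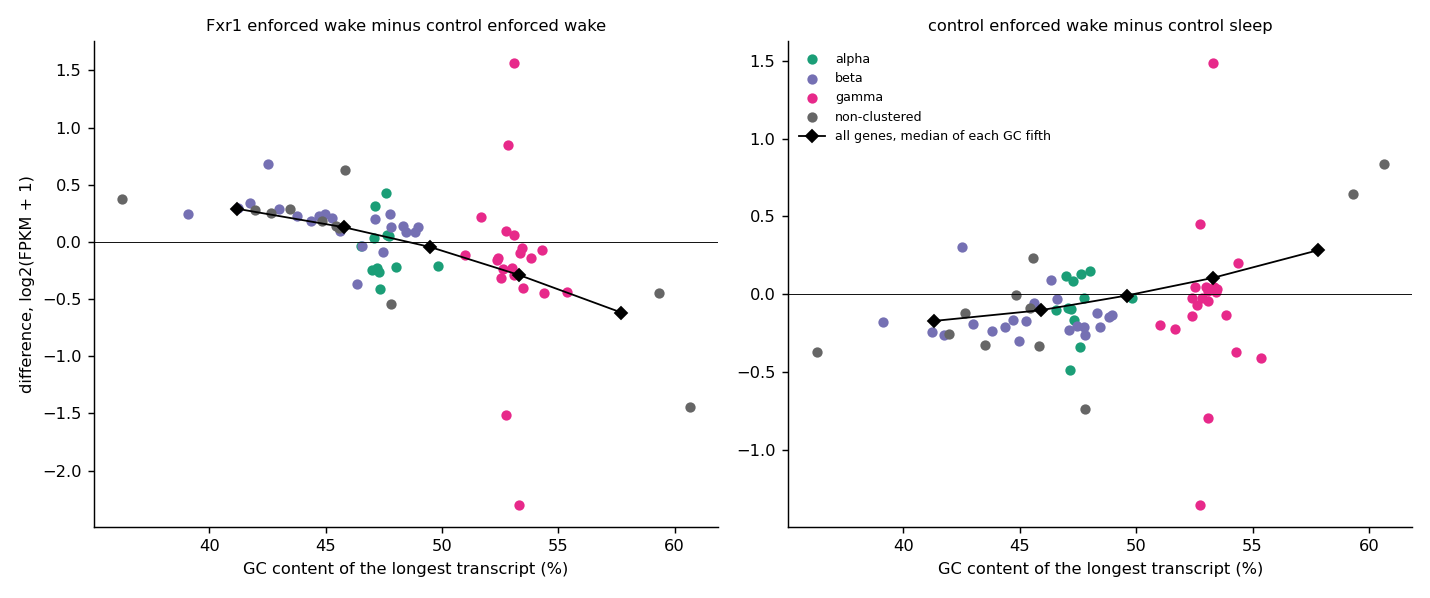
Difference of each tested protocadherin on the log2(FPKM + 1) scale against the GC content of its longest transcript in percent, with the medians of all genes in 5 equal groups by GC content (black). The black line falls from 0.29 to -0.62 in the left panel and climbs from -0.17 to 0.28 in the right panel, and beta points lie at lower GC content than gamma points.

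Fxr1 enforced wake was then set against control sleep, with all 9 libraries in 1 fit. Only Pcdh17 passed of 65 protocadherins (1.54%), against 7.79% of all 14617 genes (3.2% higher). Unadjusted, 11 of the 65 had p under 0.05, against 4263 of all 14617 genes. Pcdh17 had 17.6, 15.8 and 15.3 FPKM in Fxr1 enforced wake, against 12.4, 12.4 and 12.8 in control sleep, and rose by 0.35 (SE 0.08, limma adjusted p = 0.0390). The groups did not overlap. The call held without Fxr1 library 1 or 3 and was lost without Fxr1 library 2 or any control sleep library, and with the GC trend removed (0.24, limma adjusted p = 0.0551). Without Fxr1 library 1 Pcdhgb6 passed as well (-0.29, limma adjusted p = 0.0486), where 9.85% of all genes passed. Without Fxr1 library 3 Pcdhga4 did (-1.63, limma adjusted p = 0.0159), where 7.21% of all genes passed. Pcdhb13 passed with the GC trend removed (-0.28, limma adjusted p = 0.0459), where 12.8% of all genes passed. By class the median differences were -0.13 in alpha, -0.01 in beta, -0.27 in gamma and 0.05 in non-clustered genes, against -0.09 over all genes. All Fxr1 values lay below all control sleep values in 7 of 21 gamma genes, against 21.2% of all genes. With the GC trend removed the medians were -0.161 in alpha, -0.0367 in beta, -0.117 in gamma and -0.00152 in non-clustered genes, against 0.00484 over all genes. On that scale 4 of 21 gamma genes stood apart downward, and the share of all genes is not given here.

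The remaining non-clustered genes did not pass in any of the 3 comparisons on the deposited scale without a replicate block. Pcdh7, an adhesion protein with several cytoplasmic ends, had 61.7, 57.6 and 42.9 FPKM in Fxr1 enforced wake, 24.7, 38.8 and 41.8 in control enforced wake, and 42.2, 45.0 and 43.1 in control sleep. Fxr1 enforced wake lay above control enforced wake without overlap (0.63, limma adjusted p = 0.107). With the GC trend removed Pcdh7 overlapped, with log2 values of 5.395 in Fxr1 library 3 and 5.44 in control enforced wake library 3. Its transcripts changed places between libraries: ENSMUST00000191837 had 37.4, 32.7 and 3.08 FPKM in Fxr1 enforced wake, 1.48, 27.3 and 2.52 in control enforced wake, and 2.81, 2.32 and 2.70 in control sleep. ENSMUST00000094783 mostly ran the other way, with 1.06, 18.5 and 29.4 FPKM in Fxr1 enforced wake, 15.2, 6.26 and 30.6 in control enforced wake, and 31.2, 33.4 and 32.7 in control sleep. In Fxr1 library 2 both transcripts were high. ENSMUST00000191837 was at 27.3 to 37.4 FPKM in 3 enforced wake libraries (Fxr1 libraries 1 and 2 and control library 2) and in no control sleep library. How far this rests on the assignment of fragments to transcripts was not tested.

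Pcdh19, the X-linked gene whose loss causes an epilepsy in heterozygous females, had 2.24, 6.73 and 2.55 FPKM in Fxr1 enforced wake, 2.18, 7.66 and 8.96 in control enforced wake, and 5.99, 13.4 and 11.6 in control sleep. Every group spread widely, and neighbouring groups overlapped. The difference of Fxr1 enforced wake from control sleep was -1.28 (SE 0.50, limma adjusted p = 0.141). Most of the spread lay in ENSMUST00000060309, which had 0.00371, 1.998 and 0.172 FPKM in Fxr1 enforced wake, 0.105, 3.28 and 5.41 in control enforced wake, and 3.39, 10.6 and 8.09 in control sleep. Pcdh20 had 9.15, 6.38 and 7.32 FPKM in Fxr1 enforced wake, 5.98, 6.55 and 5.59 in control enforced wake, and 8.02, 6.95 and 7.28 in control sleep, where control enforced wake lay below control sleep without a call (-0.26, limma adjusted p = 0.0565). Pcdh9 had 13.2, 10.2 and 13.9 FPKM in Fxr1 enforced wake, 8.28, 10.8 and 11.8 in control enforced wake, and 14.0, 9.53 and 10.4 in control sleep, with overlap between all groups. Pcdh15, known for the tip links of hair cells, ranged from 2.65 to 4.04 FPKM and Pcdh18 from 1.40 to 1.96 FPKM over the 9 libraries. Their absolute differences stayed at or under 0.18 in all 3 comparisons.

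**Figure D4:**
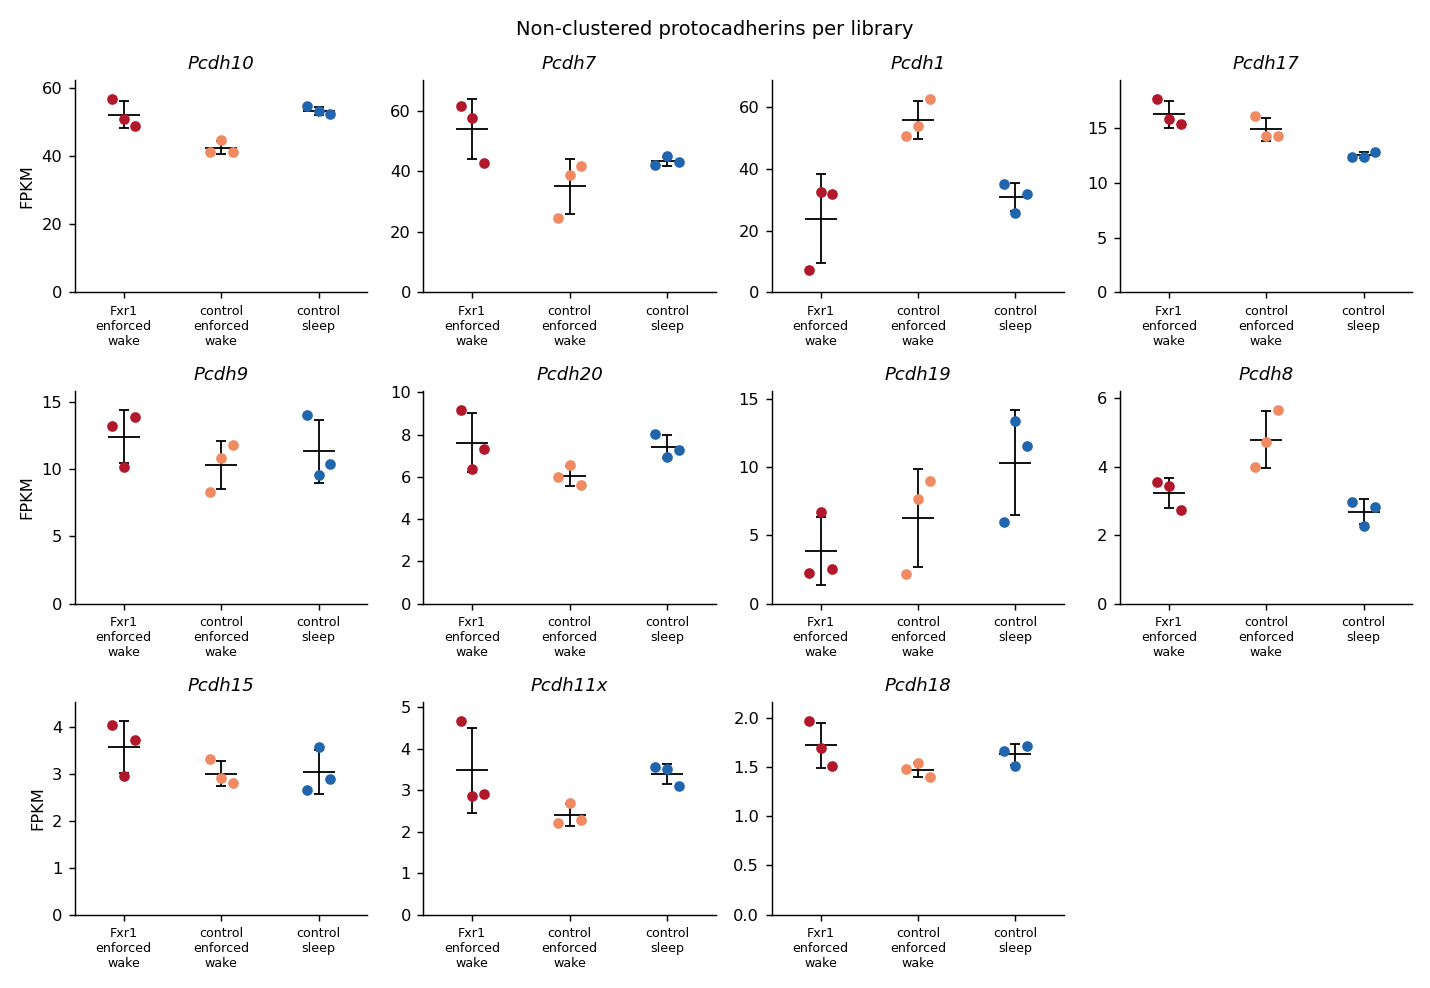
FPKM of the 11 tested non-clustered protocadherins, 1 point per library, with the mean and SD of 3 libraries in black. Control enforced wake stands above control sleep in Pcdh1, Pcdh8 and Pcdh17 and below it in Pcdh10 and Pcdh11x, and Fxr1 library 1 is the lowest Pcdh1 point at 7.19 FPKM.

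A feature of the gamma cluster ran across the groups. In every library a single one of 4 genes, Pcdhgb1, Pcdhgb8, Pcdhgb4 or Pcdhga9, was the highest gamma gene besides Pcdhgc5, and the same gene stood low in other libraries of the same group. Pcdhgb8 had 6.97, 0.173 and 23.6 FPKM in Fxr1 enforced wake, 24.6, 0.310 and 0.184 in control enforced wake, and 24.7, 0.175 and 0.379 in control sleep. Pcdhgb1 had 2.68, 2.997 and 4.24 FPKM in Fxr1 enforced wake, 7.75, 31.0 and 31.8 in control enforced wake, and 3.30, 1.93 and 32.3 in control sleep. Pcdhgb4 led in Fxr1 libraries 1 and 2 with 14.7 and 25.6 FPKM, and Pcdhga9 led in control sleep library 2 with 27.3 FPKM. The 4 genes were picked after their values were seen.

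The sum of these 4 genes was far steadier than any of them. It was 28.0, 33.8 and 31.8 FPKM in Fxr1 enforced wake, 35.8, 38.9 and 40.3 in control enforced wake, and 41.3, 33.4 and 43.9 in control sleep, or 32.8% to 39.8% of the gamma sum in each library. Pcdhgb8 had a ratio of 143 between its highest and lowest library. All gamma symbols share the constant exons at 37825021 to 37825079 and 37833265 to 37833353 and the exon that begins at 37839903 on chromosome 18 (GRCm38), so that fragments from these exons can be assigned to any gamma transcript. How far the jumps come from that assignment was not tested. A ratio of 10 or more between libraries was found in 5 of 21 gamma genes and 1 of 21 beta genes and in none of 12 alpha or 11 non-clustered genes. The fifth gamma gene was Pcdhga4, with 0.0442, 0.0723 and 2.51 FPKM in Fxr1 enforced wake, 3.45, 3.77 and 3.27 in control enforced wake, and 1.25, 2.92 and 3.03 in control sleep. The identifier ENSMUSG00000103897, which is Pcdhga8 in GENCODE and was summed with that of Pcdhgc4, also passed this ratio (84.3), with 1.07, 0.0407 and 3.001 FPKM in Fxr1 enforced wake, 3.31, 0.0392 and 0.102 in control enforced wake, and 0.0685, 2.91 and 2.95 in control sleep. The beta gene was Pcdhb21, with 2.77, 2.44 and 2.30 FPKM in Fxr1 enforced wake, 0.260, 1.86 and 1.86 in control enforced wake, and 2.66, 0.191 and 0.263 in control sleep.

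**Figure D5:**
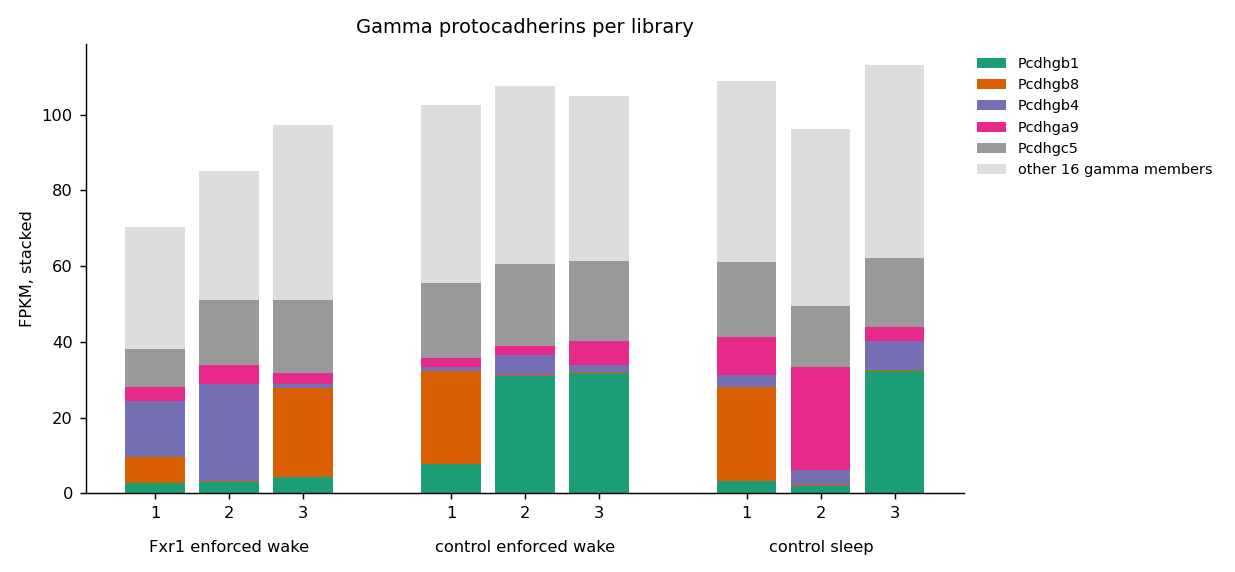
FPKM of gamma protocadherins stacked for each of the 9 libraries, with the 4 genes that alternate, Pcdhgc5 and the other 16 gamma members in separate colours. The coloured block of 4 genes keeps a height of 28.0 to 43.9 FPKM while a different gene fills it from library to library within each group.

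For single gamma genes the fits had wide errors. Pcdhgb8 differed by 0.84 (SE 1.52) between Fxr1 enforced wake and control enforced wake, and Pcdhgb1 by -2.30 (SE 0.51, limma adjusted p = 0.0878). Without the 4 genes the gamma sum was 42.4 to 65.3 FPKM in Fxr1 enforced wake, 64.8 to 68.7 in control enforced wake and 62.9 to 69.2 in control sleep. The lowest value again belonged to Fxr1 library 1.

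Genes that act on the clustered locus were examined as a list. Of 13 genes for CTCF, cohesin and its loaders, 2 rose and 1 fell in control enforced wake against control sleep, where 28.3% of all genes passed. Zfp143, which binds with CTCF at promoters, rose by 0.42 (SE 0.08, limma adjusted p = 0.0120), and the cohesin loader subunit Mau2 rose by 0.33 (SE 0.07, limma adjusted p = 0.0202). The cohesin subunit Rad21 fell by 0.23 (SE 0.06, limma adjusted p = 0.0321), but did not pass with the GC trend removed (-0.11), where Nipbl, the other loader subunit, was higher (0.166, limma adjusted p = 0.0382). Against control sleep Zfp143 was also higher in Fxr1 enforced wake, with 7.95 ± 1.12 FPKM in Fxr1 enforced wake and 5.11 ± 0.45 in control sleep (SD, n = 3 each; 0.55, limma adjusted p = 0.0240). Of 8 tested genes for silencing and DNA methylation, the DNA methyltransferase Dnmt3a rose in control enforced wake against control sleep (0.62, limma adjusted p = 0.0382) and Smchd1, which silences clustered protocadherins, fell (-0.44, limma adjusted p = 0.0299), again beside 28.3% of all genes. Neither passed with the GC trend removed, where Lrif1, a partner of Smchd1, was higher instead (0.70, limma adjusted p = 0.0438). Between Fxr1 enforced wake and control enforced wake 0 genes of both lists passed with limma. At an unadjusted p under 0.05 there were 5 of 13 and 4 of 8, against 5582 of all 14563 genes.

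The cytoplasmic partners of protocadherins gave 3 rises and 2 falls among 16 genes between control enforced wake and control sleep, a share near the 28.3% of all genes. Wasf1, a WAVE subunit, had 64.5 ± 1.93 FPKM in control enforced wake and 85.2 ± 4.69 in control sleep (SD, n = 3 each), a difference of -0.39 (limma adjusted p = 0.00735). Nckap1, through which Pcdh10 binds that complex, fell by 0.26 (SE 0.06, limma adjusted p = 0.0264). Both held with the GC trend removed (limma adjusted p = 0.00557 and 0.0415). The focal adhesion kinase gene Ptk2, which alpha and gamma cytoplasmic ends inhibit, rose by 0.33 (SE 0.05, limma adjusted p = 0.00880). Taok2, the kinase downstream of Pcdh8, rose by 0.41 (SE 0.09, limma adjusted p = 0.0213), but by 0.09 and without a call with the GC trend removed. The fifth passing gene was Ppp1ca, a phosphatase catalytic subunit, which rose by 0.21 (limma adjusted p = 0.0325) and not with the GC trend removed. Cyfip2, another WAVE subunit, passed with that trend removed (-0.175, limma adjusted p = 0.0204) and not without it. Ptk2 was also higher in Fxr1 enforced wake than in control sleep (0.42, limma adjusted p = 0.0118). Between Fxr1 enforced wake and control enforced wake 0 of the 16 passed with limma. There 5 of the 16 had an unadjusted p under 0.05, against 5582 of all 14563 genes.

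The authors' deposited table holds their own test for each transcript. Between sleep and enforced wake 0 of 165 protocadherin transcripts had a q-value under 0.05 in the authors' deposited table, where 20 had a p-value under 0.05 and the lowest q-value was 0.445. Between enforced wake with and without Fxr1 it was 0 of 163, with 7 p-values under 0.05 and a lowest q-value of 0.218 in the authors' deposited table. The shares of all transcripts in the authors' tests are not given here. Whether these counts differ from those of all transcripts therefore cannot be read. In the transcript fits with limma 0 of 89 protocadherin transcripts passed between Fxr1 enforced wake and control enforced wake (12 at an unadjusted p under 0.05), where 0.895% of all transcripts passed. Between Fxr1 enforced wake and control sleep it was 0 of 91 (9 at an unadjusted p under 0.05), where 0.818% passed.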

How the data were processed

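RNA was sequenced from 9 stranded total RNA libraries, which the authors processed with HISAT2 2.1.0, StringTie 1.3.4d and SAMtools 1.9 on GRCm38, per the submitters' processing notes. The authors deposited 2 tables of FPKM per transcript, per the file headers, each with their fold change (a ratio), p-value and q-value; no source used here names the tool behind these. The deposited fold was sleep over enforced wake in one table and Fxr1 over control in the other, and the 3 control enforced wake columns were identical in both. FPKM are relative to each library's total. Fragment numbers were estimated from the smallest FPKM steps, and no read totals were used.

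Transcript FPKM were summed by gene symbol and tested as log2(FPKM + 1) with limma 3.58.1 (R 4.3.3; lmFit, eBayes with an intensity trend), 2-sided, Benjamini-Hochberg over all genes, threshold 0.05, for genes with a mean of at least 0.5 FPKM. Such differences understate changes of low genes. Enforced wake against sleep and Fxr1 against control were fitted on their own 6 libraries, Fxr1 against sleep on all 9. An exact permutation test of 3 against 3 cannot give a p below 0.1. The GC and length trend used splines with 5 degrees of freedom, fitted to genes with a mean of at least 1 FPKM. The fits were tested on simulated data. Genes with full values were the non-clustered and C-type members, the 3 most abundant of each cluster and passing members (23 genes). Pcdhb13, Pcdhb21, Pcdhga4, Pcdhga9, Pcdhga11, Pcdhgb4 and Pcdhgb6 were named outside that rule after their values were seen. Members and lists were chosen with earlier results of these data known. Positions are from the GENCODE annotation of GRCm38 and promoter windows from RefSeq (GRCm38.p6). Symbols Pcdha11, Pcdhga8 and Pcdhgb8 each hold 2 gene identifiers. No sequence is printed for the clustered genes.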

Additional observations from a re-analysis of the deposited data

How the results depend on the processing

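Fold changes rest on FPKM, so low genes, transcript assignment and library composition limit them, and read depth was only estimated. Over 1165 values of the 23 genes with full values, 64 lost a call, 11 gained one and 60 changed sign, none of the 60 passing before or after; the cause was not tested. For 4 genes outside that rule (Pcdhb13, Pcdhga4, Pcdhga11 and Pcdhgb6), 10 of 117 values gained a call and 0 changed sign. In control enforced wake against control sleep 4156 genes and 8 protocadherins passed. It was 2319 and 4 with only the most abundant transcript, and 1398 and 2 with all 9 libraries in the fit. Without a filter on low values it was 2853 genes (10.2%) and 5 protocadherins, and with equal FPKM totals 4650 genes (31.8%) and 16. Leaving out 1 library gave 1822 to 3631 genes and 3 to 6 protocadherins. Of transcripts 1 passed, against 2 at a mean of at least 2 FPKM, 0 without a filter and 0 to 1 without 1 library. In Fxr1 enforced wake against control enforced wake 60 genes and 0 protocadherins passed: 34 genes at a mean of at least 2 FPKM, 4 without a filter, 29 with a pseudocount of 0.1, 39 with equal totals, and 3366 genes with 4 protocadherins with all 9 libraries. Leaving out 1 library gave 2 to 3316 genes, 0 to 4 protocadherins and 0 to 2 protocadherin transcripts. In Fxr1 enforced wake against control sleep 1138 genes and 1 protocadherin passed. It was 1875 genes with the GC trend removed, and 569 genes and 0 protocadherins with the most abundant transcript. It was 183 and 0 without the control enforced wake libraries in the fit, and 1153 and 2 without the intensity trend. Leaving out 1 library gave 248 to 1440 genes and 0 to 2 protocadherins.

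No pairing of libraries by replicate number was visible, which does not exclude one. The correlations of same-numbered deviations were -0.0724, -0.0178 and 0.0637 for enforced wake with sleep, and 0.0787, -0.0745 and 0.180 for Fxr1 with control enforced wake. For Fxr1 with sleep they were -0.260, -0.264 and 0.0930, where differently numbered libraries reached -0.399 and 0.44. With the replicate number as a block 5 of 65 protocadherins passed in enforced wake against sleep, against 21.2% of all genes. All 5 were non-clustered, 2 higher and 3 lower. Of protocadherin transcripts 0 passed, against 0.0378% of all transcripts. On the same fit 1 gene passed in Fxr1 against control enforced wake, and 372 genes and 0 protocadherins in Fxr1 against sleep. The block with the GC trend removed gave 2237 genes and 2 protocadherins in enforced wake against sleep and 1 gene in Fxr1 against control enforced wake. In Fxr1 against sleep it gave 1201 genes and 1 protocadherin, a non-clustered gene that was lower. Signs were the same as without the block.

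Signs changed with the GC trend removed, with and without the block, in Fxr1 enforced wake against control enforced wake for Pcdh11x (-0.0203), Pcdh17 (-0.00581), Pcdh8 (0.297) and Pcdhgc3 (0.0487), in Fxr1 enforced wake against control sleep for Pcdh11x (-0.256), Pcdh18 (-0.00152) and Pcdh20 (-0.0896), and in control enforced wake against control sleep for Pcdh15 (0.0332) and Pcdhgc5 (-0.0282). With median-of-ratios scaling they changed against control sleep for Pcdh10 (0.0436), Pcdhb17 (0.0411) and Pcdhb22 (0.00493) in Fxr1 enforced wake, and for Pcdhac1 (0.00494) against control enforced wake. With equal totals they changed likewise for Pcdh10 (0.0212), Pcdhb17 (0.0218) and Pcdhac1 (0.0400). With only the most abundant transcript they changed in Fxr1 enforced wake against control enforced wake for Pcdh15 (-0.0126), Pcdh7 (-0.534) and Pcdh8 (0.387), against control sleep for Pcdh10 (0.0358), Pcdh11x (-0.178), Pcdh15 (-0.0783), Pcdh20 (-0.139) and Pcdh7 (-1.64), and in control enforced wake against control sleep for Pcdha6 (0.292), Pcdhgb8 (0.0724) and Pcdhgc3 (0.127).

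Differences also changed sign with 1 library left out. In Fxr1 enforced wake against control sleep they ranged from -0.953 to 0.0680 for Pcdh1, -0.0949 to 0.00924 for Pcdh10, -0.175 to 0.103 for Pcdh11x, -0.0151 to 0.106 for Pcdh18, -0.101 to 0.129 for Pcdh20, -1.49 to 0.261 for Pcdhgb1, -0.180 to 2.27 for Pcdhgb8 and -0.412 to 0.0181 for Pcdhgc5. In Fxr1 enforced wake against control enforced wake they ranged from -0.0649 to 0.0175 for Pcdhac1, -0.157 to 2.30 for Pcdhgb8 and -0.805 to 0.0355 for Pcdhgc3. In control enforced wake against control sleep they ranged from -0.0779 to 0.0850 for Pcdh15, -0.224 to 0.0296 for Pcdh9, -0.0440 to 0.186 for Pcdha11, -0.0849 to 0.0243 for Pcdhac2 and -1.48 to 1.42 for Pcdhgb8.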

Other observations

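Other members of the cadherin superfamily were tabulated beside the protocadherins. Of 19 classical cadherins and catenins, 3 rose and 6 fell in control enforced wake against control sleep, where 15.7% of all genes were higher and 12.7% lower. With the GC trend removed 2 rose and 7 fell, where 10.4% of all genes were higher and 13.2% lower. Their summed level was 353 to 361 FPKM in control enforced wake and 376 to 393 FPKM in control sleep. Cdh22 had 8.81 ± 1.12 FPKM in control enforced wake and 4.22 ± 0.645 in control sleep (SD, n = 3 each), a difference of 0.91 (limma adjusted p = 0.00556). Cdh9, which marks subsets of cortical neurons, had 6.37 ± 0.218 FPKM in control enforced wake and 9.43 ± 0.626 in control sleep, a difference of -0.50 (limma adjusted p = 0.00588). Both passed with the GC trend removed (limma adjusted p = 0.00680 and 0.0167). Of 9 tested Fat, Dachsous, Celsr and calsyntenin genes 3 rose and none fell: Clstn3, which organises synapses, by 0.51 (limma adjusted p = 0.0210), Celsr3 by 0.71 (limma adjusted p = 0.0371) and Celsr2 by 0.56 (limma adjusted p = 0.0400). Celsr2 and Celsr3 did not pass with the GC trend removed. Between Fxr1 enforced wake and control enforced wake 0 genes of either list passed with limma. At an unadjusted p under 0.05 there were 11 of 19 and 6 of 9, against 5582 of all 14563 genes.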
